A study of Mus musculus with 6 samples.

Results

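The 6 members described here are plasminogen activators, the urokinase receptor and serpins, namely Plau, Plat, Plaur, Serpine2, Serpinb2 and Serpinf1. They were chosen by gene symbol from the 49548 genes of the deposited table, and each symbol matched 1 gene. All groups came from synovial fibroblasts (SFs), which line and support the joint membrane, cultured from ankle joints of hTNFtg mice, which carry a human TNF transgene and develop polyarthritis. By the study's methods the mice were 8 weeks old, on a CBA C57BL/6J background, and cells bearing the leukocyte antigen CD45 were depleted at passage 1. One group of 3 libraries was untreated according to the labels, whereas the methods speak of vehicle. The other group of 3 libraries received 500 μM amisulpride, an antipsychotic and known antagonist of dopamine receptors, for 48 hours. The comparison asked how the drug changed the expression profile of arthritic SFs. RNA was profiled by 3′ mRNA sequencing, and values are normalised counts, that is reads per gene after the authors' scaling between libraries and rounding.

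Plasminogen is an inactive circulating protease that becomes plasmin when it is cut by urokinase (Plau) or tissue-type plasminogen activator (Plat). Urokinase acts mostly at the cell surface, where it is held by its receptor (Plaur), and plasmin then breaks down fibrin and matrix proteins and activates pro-metalloproteinases. Many serpins are suicide inhibitors that trap such proteases, whereas Serpinf1 is a serpin that inhibits no protease. In the arthritic joint the balance of activators and inhibitors is known to bear on fibrin turnover and on invasion of cartilage by the synovium.

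The receptor gene Plaur was lower in every treated library, the tissue activator Plat was lower to a smaller degree, and urokinase itself and both tested serpin members overlapped between the groups. Of the 6 members, 5 passed the filter on low values (at least 10 normalised counts in at least 3 of 6 libraries) and Serpinb2 did not. At the thresholds of the study (a change of 1 or more on the log2 scale in either direction and an unadjusted p-value below 0.05) 1 of the 5 tested members was called, and it was lower. Over all 12614 genes tested, 5.7% passed these thresholds and 3.01% passed them in the lower direction. None of the 5 had a limma p-value under 0.05 after Benjamini-Hochberg adjustment over all genes, as 0.285% of all genes had, and 2 of the 5 had an unadjusted p-value under 0.05, against 10.9% of all genes. The median log2 fold change was -0.35 over the 5 tested members and 0.00 over all genes tested.

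Promoter sequence is shown for the member that was called, for the one that was barely detected and for one whose groups had nearly equal means, since these contrast most in their values. The sequences are the 250 bases before the start site from RefSeq on GRCm38.p6, the assembly of mm10, and 4 of the 6 members matched an entry. Capitals mark 3 short words searched on both strands. The word of the factor AP-1 was TGANTCA, with any base at N. For the factor SP1 the letters GGGCGG were searched. The TATA box, which places the start of transcription in some promoters, was taken as TATAAA with no mismatch. The windows were chr7:24462233-24462482 on the plus strand for Plaur, chr1:107511173-107511422 on the plus strand for Serpinb2 and chr11:75422624-75422873 on the minus strand for Serpinf1.
Plaur: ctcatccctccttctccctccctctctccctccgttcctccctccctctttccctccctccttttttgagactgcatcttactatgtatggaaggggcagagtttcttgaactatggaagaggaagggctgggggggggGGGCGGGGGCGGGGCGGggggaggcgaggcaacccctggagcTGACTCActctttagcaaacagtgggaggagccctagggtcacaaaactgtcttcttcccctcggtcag
Serpinb2: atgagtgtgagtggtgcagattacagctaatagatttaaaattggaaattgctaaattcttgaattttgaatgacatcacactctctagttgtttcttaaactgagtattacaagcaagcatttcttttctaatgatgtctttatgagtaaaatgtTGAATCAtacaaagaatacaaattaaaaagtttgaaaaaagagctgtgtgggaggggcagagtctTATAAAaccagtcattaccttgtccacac
Serpinf1: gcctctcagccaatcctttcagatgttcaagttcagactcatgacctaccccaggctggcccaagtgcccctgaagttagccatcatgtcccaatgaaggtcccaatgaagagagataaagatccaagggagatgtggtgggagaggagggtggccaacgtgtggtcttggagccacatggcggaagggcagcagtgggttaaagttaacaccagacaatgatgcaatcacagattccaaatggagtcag
In the Plaur window an AP-1 word began 69 bases before the start site. The same window held 3 SP1 words, of which the 2 nearest the start site shared 1 base. The Serpinb2 window held an AP-1 word beginning 94 bases before the start site and a TATA box beginning 29 bases before it. It is the window that ends where the deposited span of the gene begins, and a second RefSeq window, chr1:107511260-107511509, placed these words 181 and 116 bases before its own start site. The Serpinf1 window held 0 of the 3 words. It begins at 75422624, whereas the deposited span of this minus-strand gene ends at 75422701, so part of the window lies inside that span. The Plaur and Serpinb2 windows shown lie outside the deposited spans of their genes. Serpine2, the other member with an entry, is not shown. Its window held several SP1 words and no AP-1 or TATA word, and the gene was not called. Across 32851 promoter windows of the same length, 6.75% held the AP-1 word, 32.7% the SP1 word and 12.4% the TATA word. A word match describes the sequence only and is no measure of binding.

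Plaur (ENSMUSG00000046223, chromosome 7, 24462484 to 24475968, plus strand) encodes the cell surface receptor that holds urokinase. It had 120, 100 and 82 normalised counts in untreated replicates 1, 2 and 3, and 52, 37 and 43 in amisulpride replicates 1, 2 and 3. The highest treated value lay below the lowest untreated value, so the groups did not overlap, as was so in the lower direction for 8.66% of all genes tested. Plaur fell from 100.7 ± 19.0 to 44.0 ± 7.55 (SD, n = 3), which gave a log2 fold change of -1.17 ± 0.29 (SE; 95% interval -1.81 to -0.53). Expressed as a ratio, treated SFs held 0.444 times the untreated level, with an interval of 0.284 to 0.693. The limma p-value was 0.00196 before adjustment and 0.138 after it. Within replicate numbers the log2 ratio was -1.19, -1.41 and -0.92. As the groups did not overlap, any pairing would give this direction, so the pairs add nothing on direction.

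Myeloid cells are another known source of the urokinase receptor, so their markers are given beside it. Their summed level was 2878 to 5625 normalised counts in untreated libraries and 2764 to 5157 in treated ones, ranges that overlapped, and most of it was Lyz2 and Laptm5. Of 12 tested myeloid markers, 4 had a log2 fold change above 0 and 8 below it, with a median of -0.20. The study thresholds were passed by 2 markers, both lower, against 3.01% of all genes tested in that direction. These were Cd14, at 121, 69 and 76 against 47, 25 and 13 normalised counts, and Csf1r, at 114, 93 and 76 against 41, 23 and 100. Ptprc, which encodes CD45, was at 38, 12 and 18 normalised counts in untreated and 23, 5 and 5 in treated libraries, with overlap. Its log2 fold change was -1.16 (limma adjusted p 0.56). The macrophage gene Adgre1 went the other way, at 39, 25 and 14 against 59, 43 and 32 (log2 fold change 0.83, limma adjusted p 0.518). The granulocyte gene S100a9 was at 0 in all 6. The part of myeloid transcripts in the Plaur difference was not tested. In such bulk samples fewer cells of a type and less RNA per cell cannot be told apart.

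Plau (ENSMUSG00000021822, chromosome 14, 20836662 to 20843388, plus strand) encodes urokinase, the ligand of this receptor. It had 77, 47 and 67 normalised counts in untreated replicates 1, 2 and 3, and 89, 59 and 68 in amisulpride replicates 1, 2 and 3. The groups overlapped, although the treated library was higher within each of the 3 replicate numbers, by 0.21, 0.32 and 0.02 on the log2 scale. The means were 63.7 ± 15.3 and 72 ± 15.4 (SD, n = 3), which gave a log2 fold change of 0.18 ± 0.31 (SE; 95% interval -0.50 to 0.86) and a limma adjusted p of 0.861. The interval leaves room for a change of up to 1.82-fold upward and down to 0.709 times the untreated level.

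Plat (ENSMUSG00000031538, chromosome 8, 22757727 to 22782844, plus strand) encodes the tissue-type activator, best known for dissolving fibrin clots. It had 195, 289 and 259 normalised counts in untreated replicates 1, 2 and 3, and 175, 149 and 132 in amisulpride replicates 1, 2 and 3. The groups did not overlap, as was so in the lower direction for 8.66% of all genes tested. Untreated replicate 1 was nearest to the treated libraries. The means were 247.7 ± 48.0 and 152 ± 21.7 (SD, n = 3), which gave a log2 fold change of -0.69 ± 0.26 (SE; 95% interval -1.26 to -0.12). This did not reach the fold threshold of the study. The limma p-value was 0.0215 before adjustment and 0.344 after it, and leaving out untreated replicate 2 or 3 moved the unadjusted value to 0.0927 or 0.0686. Within replicate numbers the log2 ratio was -0.16, -0.95 and -0.97.

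Endothelial cells also make Plat, and most of their defining markers were at or near 0 in these libraries. Cdh5, Tie1 and Cldn5 were at 0 in all 6 libraries, Pecam1 was at 3 or fewer normalised counts, and Tek and Emcn reached 12 and 10 in a single library each. The 11 endothelial markers together summed to 78 to 98 normalised counts in untreated and 27 to 67 in treated libraries, most of it from Egfl7, at 66, 84 and 78 against 50, 59 and 25. Egfl7, the only 1 of these markers that passed the filter, had a log2 fold change of -0.83 (limma p 0.0386 unadjusted, 0.424 adjusted). Its groups did not overlap, as was so in the lower direction for 8.66% of all genes tested. The part of endothelial transcripts in the Plat difference was not tested.

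**Figure D1:**
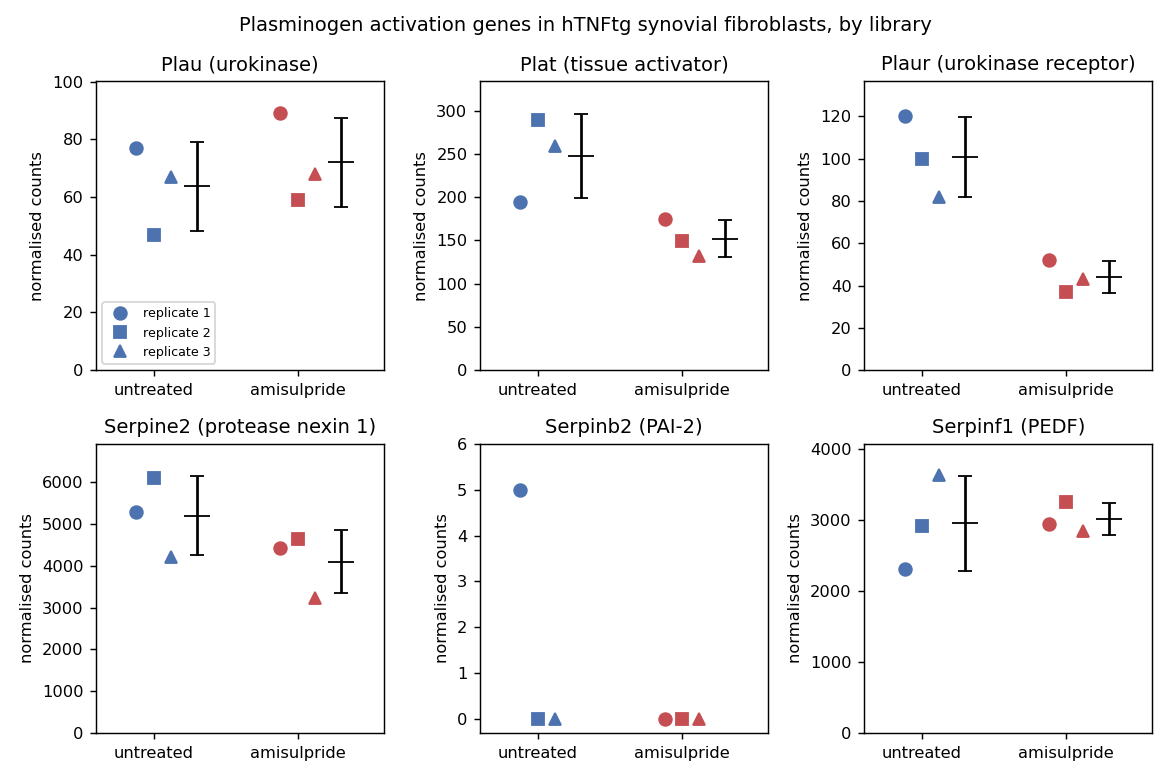
Each panel plots the normalised counts of 1 gene in the 3 untreated libraries (blue) and the 3 amisulpride libraries (red), with marker shape giving the replicate number and the black bar the mean with its SD (not drawn for Serpinb2). Plaur at 37 to 52 in treated libraries sits below its untreated range of 82 to 120, Plat is separated by a narrower gap, and the points of Plau, Serpine2 and Serpinf1 overlap between groups.

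Ratios of 2 genes within a library do not depend on any scaling that all genes of that library share. The ratio of Plaur to Plau, receptor to ligand, was 1.56, 2.13 and 1.22 in untreated replicates 1, 2 and 3, and 0.584, 0.627 and 0.632 in amisulpride replicates 1, 2 and 3. Its mean was 0.615 ± 0.0264 in treated SFs and 1.64 ± 0.457 in untreated ones (SD, n = 3). In amisulpride replicate 3, counting error alone was 20.4% for Plaur and 16.2% for Plau. This exceeds the spread of the treated ratios, so nothing follows from how close together they lie. The difference of the log2 ratios was -1.36, and the exact two-sided permutation test gave p = 0.1, the smallest value that 3 against 3 libraries allow. The ratio of Plat to Plau was 2.53, 6.15 and 3.87 in untreated and 1.97, 2.53 and 1.94 in treated libraries, and untreated replicate 1 and amisulpride replicate 2 were nearly equal. The exact test gave p = 0.1 here too. The ratio of Serpine2 to Plat was 27.2, 21.1 and 16.2 in untreated and 25.3, 31.1 and 24.5 in treated libraries, which overlapped (exact p = 0.3). These 3 ratios were chosen after the values were seen, and none can pass a threshold of 0.05 in this design, before or after adjustment.

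**Figure D2:**
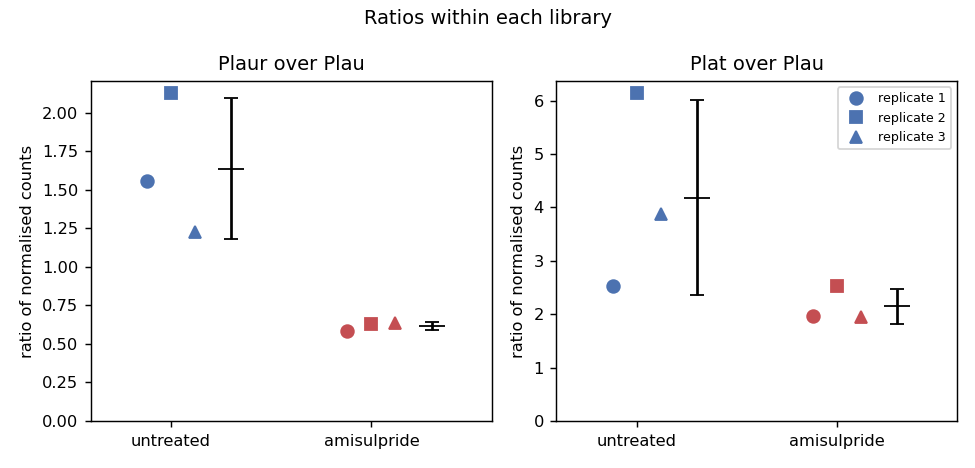
The left panel plots the ratio of Plaur to Plau normalised counts and the right panel that of Plat to Plau, per library, with blue for untreated and red for amisulpride, marker shape for the replicate number and black bars for the mean with its SD. The treated receptor to ligand ratios run from 0.584 to 0.632, under all untreated ratios, which run from 1.22 to 2.13.

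The serpins were examined next. Serpine2 (ENSMUSG00000026249, chromosome 1, 79794197 to 79861180, minus strand) encodes protease nexin 1, a matrix-bound inhibitor of thrombin, urokinase and the tissue activator. It had 5299, 6099 and 4208 normalised counts in untreated replicates 1, 2 and 3, and 4422, 4634 and 3235 in amisulpride replicates 1, 2 and 3. The groups overlapped, because untreated replicate 3 lay below treated replicates 1 and 2, although within each replicate number the treated library was lower. The means were 5202 ± 949 and 4097 ± 754 (SD, n = 3), which gave a log2 fold change of -0.35 ± 0.28 (SE; 95% interval -0.95 to 0.26) and a limma adjusted p of 0.70. Without amisulpride replicate 3, the library least correlated with the others, the value was -0.18.

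Serpinf1 (ENSMUSG00000000753, chromosome 11, 75409769 to 75422701, minus strand) encodes pigment epithelium-derived factor, a secreted serpin that inhibits no protease and restrains blood vessel growth. It had 2309, 2915 and 3639 normalised counts in untreated replicates 1, 2 and 3, and 2943, 3262 and 2840 in amisulpride replicates 1, 2 and 3. The treated values all lay inside the untreated range. The means were 2954 ± 666 and 3015 ± 220 (SD, n = 3), which gave a log2 fold change of 0.05 ± 0.26 (SE; 95% interval -0.52 to 0.62) and a limma adjusted p of 0.959. A change of more than 1.54-fold upward, or to less than 0.697 times the untreated level, was outside the interval.

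Serpinb2 (ENSMUSG00000062345, chromosome 1, 107511423 to 107535478, plus strand) encodes plasminogen activator inhibitor 2, which is largely kept inside the cell. It had 5 normalised counts in untreated replicate 1 and 0 in the other 5 libraries. A count of 0 allows up to 3 reads, which corresponded to 2.50 to 5.37 normalised counts in these 5 libraries, so the gene was near the limit of detection and no fold is given. The annotated span of Serpinb2 overlaps Serpinb10 on the same strand over 6476 bases, and Serpinb10 had 3 normalised counts in untreated replicate 2 and 0 elsewhere.

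By the rule for genes of similar pattern, the protein-coding genes whose log2 values over the 6 libraries correlated best with each tested member were taken among 11030 genes, as a description that includes the difference between groups. For Plaur these were Csrp2bp and Ncapd2, a condensin subunit, both with a Pearson correlation of 0.992. Ncapd2 stood at 81, 63 and 52 normalised counts in untreated and 33, 20 and 29 in treated libraries. For Plat they were Ak1 (correlation 0.9999), an adenylate kinase, and Fam171a1 (0.989), for Plau Lcorl (0.991) and Rae1 (0.987), for Serpine2 Penk (0.987) and Kng1 (0.986), and for Serpinf1 Cdk2ap1 (0.974) and Akap11 (0.965). These values are the highest among many genes over only 6 libraries, and nothing follows from them.

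None of the other plasminogen system genes examined passed the study thresholds. Of 28 further genes, namely other inhibitors, plasminogen receptors, clearance receptors, integrins and coagulation factors, 19 were tested and 7 were at 0 in all libraries, including Plg, which encodes plasminogen itself. Of the 19, 0 passed the study thresholds and 1 had an unadjusted limma p-value under 0.05, against 5.7% and 10.9% of all genes tested. The median log2 fold change was -0.03. The gene with an unadjusted p-value under 0.05 was Vldlr, an endocytic receptor that clears complexes of activators and serpins. It was at 59, 72 and 65 normalised counts in untreated and 93, 116 and 118 in treated libraries. The log2 fold change was 0.73 ± 0.27 (limma adjusted p 0.326), and Vldlr was named after its value was seen. Its relative Lrp1 was at 562, 307 and 453 against 347, 333 and 277, with overlap.

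Anxa2, which with S100a10 forms a docking site for plasminogen and the tissue activator, was at 4406, 3861 and 3442 in untreated and 4650, 4005 and 3332 in treated libraries, a log2 fold change of 0.03 ± 0.26. Fn1, the matrix protein fibronectin, ran from 5956 to 14008 in untreated and from 8222 to 20335 in treated libraries. Itgb1, the beta integrin subunit of the fibronectin receptor, was at 1040, 2405 and 2512 in untreated and 1752, 1649 and 5256 in treated libraries, with overlap. Itgb3, a beta integrin subunit that binds vitronectin, did not pass (-0.95, unadjusted limma p 0.0548), but passed the study thresholds without untreated replicate 2 (-1.30) and without amisulpride replicate 3 (-1.29).

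Among 64 other serpin genes, 10 were tested, 31 were at 0 in all libraries and 23 were detected below the filter. Serpina5, Serpine3, Serpinf2 and Serpini1 are counted both here and among the other plasminogen system genes, and none of them was tested. Of the 10 tested, 0 passed the study thresholds and 0 had an unadjusted limma p-value under 0.05, against 5.7% and 10.9% of all genes. Their median log2 fold change was 0.19. Serpinh1, a collagen chaperone that inhibits no protease, had 2868, 2440 and 2892 normalised counts in untreated libraries. In treated libraries it had 3979, 4033 and 3021 (log2 fold change 0.42 ± 0.25, limma adjusted p 0.586). Serpinb6a, an intracellular serpin, was at 7389, 6078 and 6164 against 8336, 5849 and 3606. Serping1, the inhibitor of complement C1, was at 787, 2102 and 1282 in untreated and 1532, 2222 and 866 in treated libraries, with overlap. Serpina3n had a log2 fold change of 1.01 without passing the test (unadjusted limma p 0.230), but passed the study thresholds with the replicate block, which pairs libraries by replicate number (unadjusted p 0.00751, adjusted p 0.139). It belongs to a family of near-identical mouse genes, so the split of reads among them is uncertain.

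Genes whose products plasmin cuts or activates moved in both directions. Of 14 such genes 11 were tested, and 5 passed the study thresholds, against 5.7% of all genes tested. The list was chosen with earlier results of these data known. Of the 5, 3 were lower and 2 higher, and the median log2 fold change over the list was 0.09. The lower ones were the metalloproteinases Mmp3 (-1.79 ± 0.37), Mmp9 (-1.70 ± 0.56) and Mmp13 (-1.31 ± 0.42), whose proforms plasmin can start to activate, and their groups overlapped for Mmp9 and Mmp13. The higher ones were Hgf (1.05 ± 0.46), a growth factor made as a precursor, and Fgf2 (1.47 ± 0.46), which is bound to matrix. None of the 5 had a limma adjusted p-value under 0.05, whereas with the replicate block Mmp3 (0.00910), Mmp9 (0.00371) and Mmp13 (0.0105) did. Without amisulpride replicate 3 the limma adjusted p was 0.00975 for Mmp3 and 0.0367 for Mmp9, and Mmp3 also came under 0.05 with quantile normalisation (0.0433) and with weights per library (0.0121). Fgf2 was at 155, 146 and 45 normalised counts in untreated and 198, 246 and 451 in treated libraries, and Hgf at 30, 41 and 58 against 113, 40 and 145. Leaving out any 1 library kept Mmp3 past the thresholds. Mmp9 did not pass without untreated replicate 1 or amisulpride replicate 2, Mmp13 without untreated replicate 2 or amisulpride replicate 1, and Fgf2 without untreated replicate 3. Hgf passed only without untreated replicate 3 or amisulpride replicate 2 among these fits, and did not pass with a pseudocount of 5 or with weights per library. For this list, 3 genes passed without untreated replicate 1, untreated replicate 2 or amisulpride replicate 1. The matrix proteins Thbs1 (0.74 ± 0.38) and Lamb1 (-0.14 ± 0.24) and the binding protein Igfbp5 (0.52 ± 0.49) did not pass, although Thbs1 did without untreated replicate 3 (1.12, unadjusted limma p 0.0160).

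**Figure D3:**
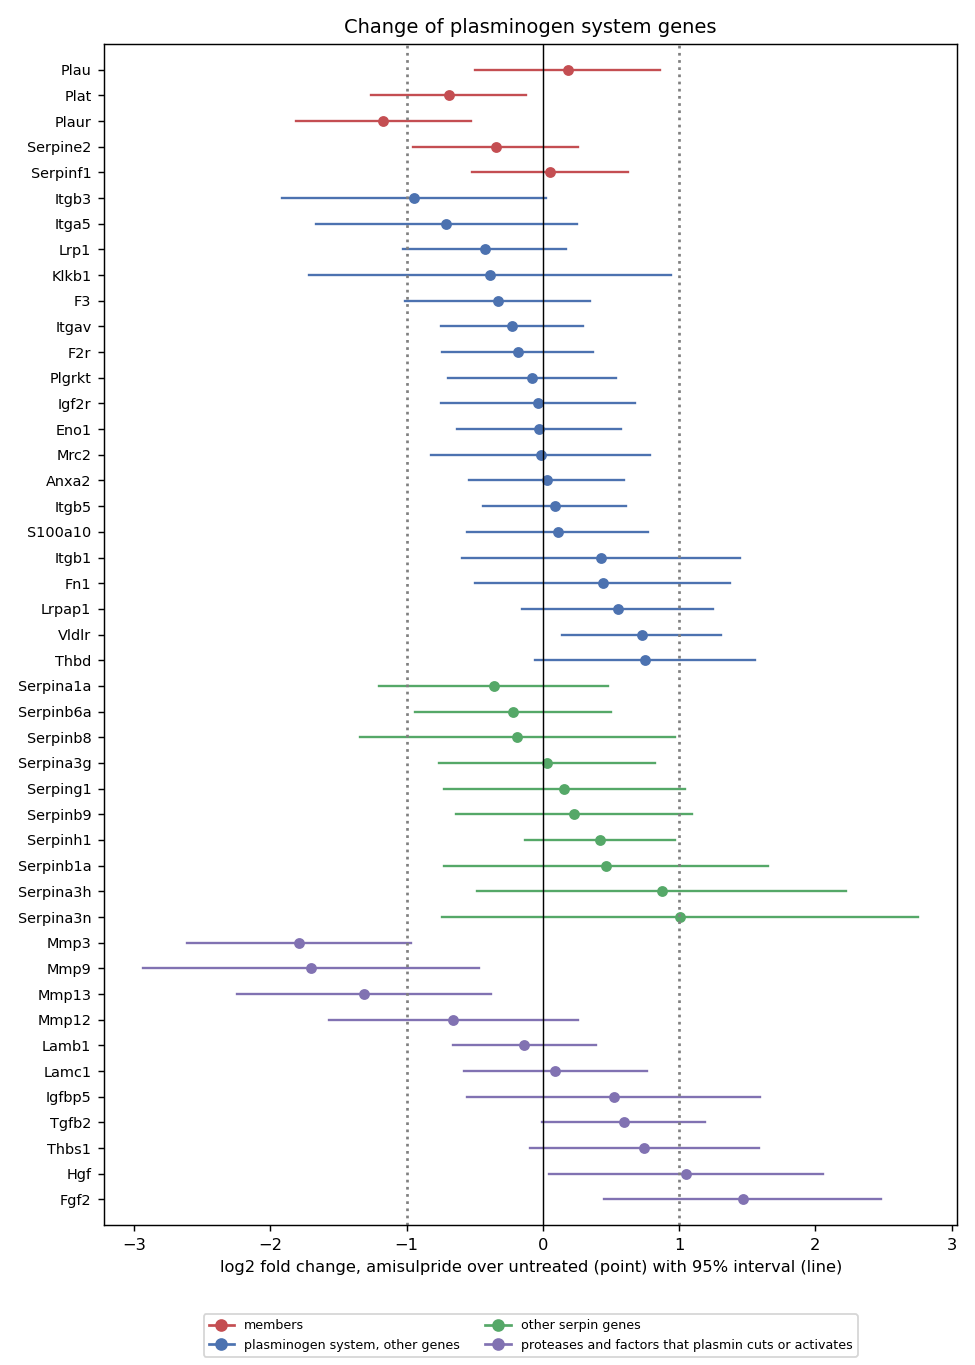
The plot shows the log2 fold change of amisulpride over untreated SFs (points) with its 95% limma interval (lines) for the 5 tested members in red, other plasminogen system genes in blue, other serpin genes in green and genes whose products plasmin cuts or activates in purple, with dotted lines at -1 and 1. Among the red, blue and green genes Plaur and Serpina3n have points past a dotted line, and of these Plaur alone has an interval that excludes 0.

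The libraries differed in depth. Dividing the total by the estimated value of 1 read gave about 3.64 and 4.71 M reads for untreated replicates 2 and 3, and 4.40, 2.94 and 2.52 M for the treated ones, while untreated replicate 1 could not be resolved with certainty. Over these 5 libraries Plaur rested on about 24.0 to 98.3 reads and Plau on 38.0 to 99.3, so that counting error alone was 20.4% and 16.2% at the lowest. Plat rested on 73.7 reads at the lowest. Amisulpride replicate 3 had the lowest correlations with other libraries (0.883 to 0.909, against 0.903 to 0.959 for pairs without it). The fibroblast markers summed to 45221 to 60240 normalised counts in untreated and 52114 to 91864 in treated libraries. Of 13 such markers 0 passed the study thresholds, against 5.7% of all genes tested, and 8 had a log2 fold change above 0 and 5 below it. Prg4 was at 915, 859 and 733 in untreated and 426, 304 and 653 in treated libraries (-0.92, unadjusted limma p 0.00924). Lum (-1.07) and Fap (1.12) reached the fold threshold alone. Keratinocyte and chondrocyte markers summed to at most 93 and 1613 normalised counts in any library. Most of the chondrocyte sum was Comp and Sox9. Col9a1 was at 0 in all 6 libraries, and Acan was at 2 in amisulpride replicate 3 and 0 elsewhere.

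**Figure D4:**
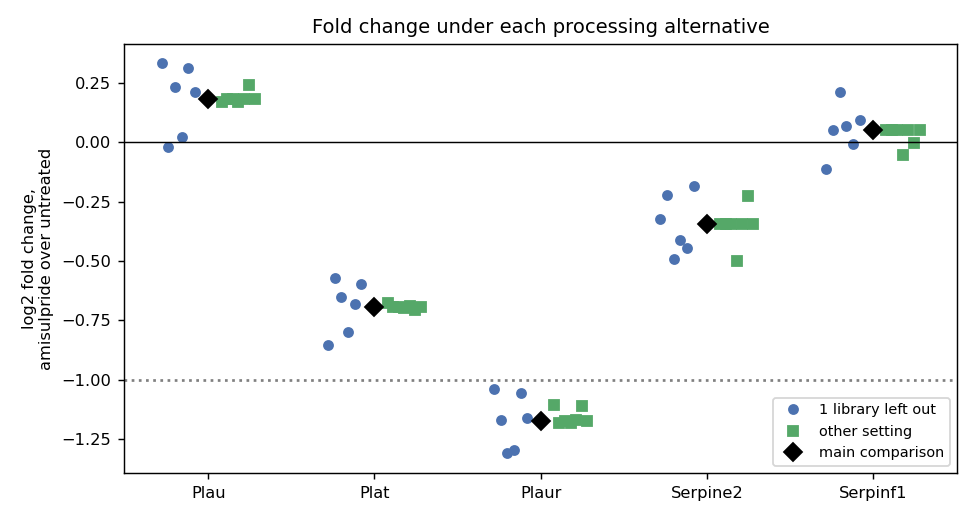
The plot shows the log2 fold change of each tested member in the main comparison (black), with each library left out in turn (blue) and under 7 other settings (green), with a dotted line at -1. Plaur stays between -1.31 and -1.04, past the dotted line in all 13 alternatives, and Plat and Serpine2 stay below 0 and above the dotted line. Plau lies above 0 in 12 of the 13 alternatives and at -0.0173 in 1, and Serpinf1 lies on both sides of 0.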

How the data were processed

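SFs from hTNFtg ankle joints were profiled as 3 untreated and 3 amisulpride libraries. The authors mapped 3′ reads to mm10 with TopHat2 and then Bowtie2, counted them with GenomicRanges, normalised the counts and then tested them with DESeq, through metaseqr, in versions not given in the sources used here. The deposited values used here are a score, namely counts that the authors normalised, by a method not given in the sources used here, and rounded. The deposited p-values, adjusted p-values and fold changes of the authors' comparison were not used, nor were 12 other columns of values per library.

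The comparison used limma (version 3.58.1, R 4.3.3), with values as log2(normalised count + 1) and a variance trend, over all genes with at least 10 normalised counts in at least 3 libraries, two-sided, with Benjamini-Hochberg adjustment. This scale understates changes of low genes. The method was tested on simulated libraries drawn independently of each other, a test that does not cover libraries that come in pairs. The value of 1 read was estimated per library from gaps and doublings among low values, and such floors and depths cover counting error only. A symbol carried by several genes was taken as the gene with the highest mean. Deviations from the group mean correlated at 0.201 to 0.240 for libraries of the same replicate number, and the numbers were therefore treated as pairs in an alternative fit. The other pairs correlated at -0.149 to -0.0777. As the deviations within a group add up to 0, these negative values largely follow from the positive ones and are no separate evidence of pairing. The study's methods speak of 3 biological replicates. Neither they nor the labels say whether these were separate animals, so p-values measure the spread between these samples.

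The members and gene lists were chosen with earlier results of these data known. Genes named were the members, the genes of each list past the study thresholds, the 3 others of each list with the highest mean, and the 2 genes most correlated with each tested member. Vldlr, Lrp1, Itgb3, Serpina3n, the cell type markers and the genes called under an alternative alone were named after their values were seen, and 1 gene of the lists is not reported here. Alternatives were 2 pseudocounts, no filter, 2 scalings, library weights, the replicate block and leaving out each library.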

Additional observations from a re-analysis of the deposited data

How the results depend on the processing

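Plaur was lower and past the study thresholds in all 13 alternatives, with log2 fold changes of -1.31 to -1.04 and limma adjusted p-values of 0.0533, with the replicate block, to 0.403. Plat (-0.85 to -0.57) and Serpine2 (-0.50 to -0.18) stayed lower and did not pass in the same 13. Plau changed sign without untreated replicate 2 (-0.0173), within a range of -0.0173 to 0.333 with 1 library left out. Serpinf1 changed sign with quantile normalisation (-0.053), with weights per library (-0.0008), without untreated replicate 1 (-0.11) and without amisulpride replicate 2 (-0.01), and ranged from -0.11 to 0.21 with 1 library left out. The cause of these changes was not tested.

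The number of members past the thresholds was 1 in every alternative. For the other plasminogen system genes it was 1 with weights per library (Itgb3) and 0 to 2 with 1 library left out, namely Itgb3 without untreated replicate 2 or amisulpride replicate 3, and Itga5 and Thbd without amisulpride replicate 1. For the other serpin genes it was 1 with weights per library and 1 with the replicate block (Serpina3n in both), and 0 to 1 with 1 library left out, namely Serpina3h without untreated replicate 2 and Serpina3n without amisulpride replicate 3. For the genes whose products plasmin cuts or activates it was 4 with a pseudocount of 5 or with weights per library (both without Hgf), 3 to 5 with 1 library left out and 7 without the filter, where Mmp10 and Tgfb1 were added. Over all genes, 719 passed the thresholds, 1313 did so without the filter, where more genes were tested, and 563 to 1000 with 1 library left out. With an adjusted p-value under 0.05 there were 36 genes, and 57 with a pseudocount of 5, 57 without the filter, 66 with quantile normalisation, 195 with weights per library, 263 with the replicate block and 0 to 120 with 1 library left out. The replicate block changed the call of no member. Depth limits Plaur, Plau and Serpinb2 most.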
